A study of Mus musculus with 12 samples.

Results

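Fatty acid synthesis and desaturation enzymes were described as 10 genes: Srebf1, Acly, Acaca, Fasn, Scd1, Scd2, Elovl5, Elovl6, Fads1 and Fads2. They were chosen by gene symbol for their known function, by a rule that uses no measured value, although earlier results of these data were known when the list was made. They are 10 of the 46078 gene identifiers in the count table. All 10 passed the filter on low counts, which kept 15866 genes. RNA came from the ventrolateral white matter of the mouse spinal cord, cut out by laser capture microdissection, in which chosen areas of a stained section are freed with a laser. All mice carried the C57Bl6 strain label, and the study's methods give 6 weeks as the age of young and 8 months as the age of middle-aged animals. Naïve mice had no lesion, and injured mice were sampled 72 h (day 3) after lysolecithin, a detergent-like phospholipid that strips myelin, had been injected into the ventrolateral white matter. The 4 groups crossed age with injury, and each had 3 libraries of RNA pooled over 5 mice, so the replicate was a pool and the spread between the mice of a pool was not measured.

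A cell that builds membrane makes fatty acids from citrate: ATP-citrate lyase releases acetyl-CoA, acetyl-CoA carboxylase turns it into malonyl-CoA, and fatty acid synthase joins these units into palmitate. Elongases and desaturases of the endoplasmic reticulum then lengthen the chain and add double bonds, and the transcription factor SREBP-1, the product of Srebf1, switches on most genes of the route. Oligodendrocytes, which wrap axons in lipid-rich myelin, use this route heavily, as do adipocytes and liver cells outside the nervous system.

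The annotation of GRCm38 placed 4 of the genes on chromosome 11 and 4 on chromosome 19. Srebf1 spans chr11:60199089-60222581 on the minus strand, Acly chr11:100476353-100528000 (minus), Acaca chr11:84129672-84401651 (plus) and Fasn chr11:120805846-120824547 (minus). Scd1 (chr19:44394455-44407879, minus) and Scd2 (chr19:44293674-44306864, plus) are close neighbours, as are Fads1 (chr19:10182888-10196877, plus) and Fads2 (chr19:10062765-10101746, minus). Elovl5 spans chr9:77917364-77984519 (plus) and Elovl6 spans chr3:129532355-129638495 (plus). Every value is a count over the exons of a whole gene, so isoforms were not separated. Of the distinct stretches of 31 bases in the annotated Acaca transcripts, 33.4% also occur in transcripts of other genes. The share was 8.14% for Scd1, 6.81% for Scd2 and 6.41% for Elovl6, and 0.729% or less for the other 6. Scd1 and Scd2 shared 253 such stretches with each other, and how reads that match both genes were counted is not stated, so their values are uncertain to that extent. Srebf1 also shares 109 exon bases with Rai1 on the other strand, a gene with 38 to 95 counts in a pool, and the strand setting is not stated.

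RefSeq gives a promoter window for 7 of the 10 genes, 9 windows in all on GRCm38.p6, and the 250 bases before the start are shown for Fasn, Acly and Elovl5 as examples of enzymes that fell after injury at both ages, chosen because their windows hold different motifs; Acaca, Elovl6 and Fads2 also have windows and also fell. Capitals mark matches to CCAAT (read ATTGG on the other strand; the last pair in Fasn overlaps), GGGCGG (read CCGCCC on the other strand) and the palindrome CACGTG, and each window reads 5′ to 3′ on the strand of its gene.
Fasn, chr11:120824548-120824797, minus strand: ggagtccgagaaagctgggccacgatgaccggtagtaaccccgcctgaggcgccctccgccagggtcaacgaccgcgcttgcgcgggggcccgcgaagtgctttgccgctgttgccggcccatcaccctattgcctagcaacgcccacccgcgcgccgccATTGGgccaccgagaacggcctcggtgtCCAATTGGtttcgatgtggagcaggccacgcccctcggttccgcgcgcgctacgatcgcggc
Acly, chr11:100528001-100528250, minus strand: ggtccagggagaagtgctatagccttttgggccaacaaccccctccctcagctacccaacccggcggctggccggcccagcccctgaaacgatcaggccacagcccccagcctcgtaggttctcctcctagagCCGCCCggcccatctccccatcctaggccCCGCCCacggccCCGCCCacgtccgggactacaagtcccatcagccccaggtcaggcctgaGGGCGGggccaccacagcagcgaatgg
Elovl5, chr9:77917115-77917364, plus strand: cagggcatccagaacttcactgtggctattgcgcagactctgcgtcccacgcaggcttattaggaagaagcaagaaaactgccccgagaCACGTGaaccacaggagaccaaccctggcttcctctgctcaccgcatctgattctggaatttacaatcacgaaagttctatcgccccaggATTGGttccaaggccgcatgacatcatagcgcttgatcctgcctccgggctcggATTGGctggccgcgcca
On both strands, CCAAT was in 4 of the 9 windows against 33.8% of all 32851 windows, GGGCGG in 4 against 32.7%, and CACGTG in 1 against 6.02%. Srebf1 alone has 3 of the 9 windows, some with CCAAT and some with GGGCGG, so windows are not separate genes. The Acaca window, chr11:84195188-84195437, lies inside the gene span given above and not before its first base. So do the Srebf1 windows chr11:60220628-60220877 and chr11:60210472-60210721. The Fads2 window, chr19:10101504-10101753, lies mostly inside its gene span, and the end of the Elovl6 window, chr3:129532136-129532385, reaches into its own. The GGGCGG matches of Srebf1 and Fads2 are all in these windows. The classical sterol regulatory element TCACNCCAC was in 0 of the 9 windows and in 1.05% of all windows, and a pair of AGGTCA in the same direction with 4 bases between them was in 0 of the 9 and in 0.0152% of all. These matches describe letters in 250 bases and say nothing about binding.

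Between 9834447 and 12807437 counts fell on genes in each pool. Levels are given as CPM, counts scaled to a common library total, after TMM scaling, which corrects for differences in composition, with factors of 0.921 to 0.977 in naïve and 1.03 to 1.09 in injured pools. The smallest count of any of the 10 genes was 52, for Fads2 in middle-aged injured replicate 2. This is 4.29 CPM of the library total, with a 95% Clopper-Pearson interval of 3.21 to 5.63 CPM that covers counting error only. Middle-aged naïve replicate 2 stood furthest from its group, with correlations across genes of 0.981 and 0.983 on the log2 scale against 0.991 or more in all other pairs of a group. The 8 oligodendrocyte markers that define this tissue, among them Mbp, Mog and Mag, were abundant in all pools, whereas the adipocyte markers Adipoq, Plin1 and Lep were at 3 counts or fewer in every pool and Cidec reached 7 counts at most.

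Expressed per kilobase of merged exon, which allows genes to be compared with each other, the delta-9 desaturase Scd2 had the highest level of the 10 genes in all 4 groups. In young naïve white matter Scd2 stood at 1730 ± 197 CPM per kb (SD, n = 3), followed by Scd1 at 520 ± 34.0, Acly at 329 ± 33.9, Elovl5 at 93.3 ± 11.5 and Fads1 at 53.0 ± 0.452. Lower in the same pools were Elovl6 at 36.9 ± 4.63 CPM per kb, Fasn at 19.0 ± 2.81, Fads2 at 6.95 ± 1.16, Acaca at 4.70 ± 0.785 and Srebf1 at 3.14 ± 0.174. No neighbours in this order overlapped in young naïve mice. In the other 3 groups the pools of Acly and Scd1 overlapped, and Acaca, Fads2 and Srebf1, the lowest genes, could not be fully separated. Elovl6 and Fasn overlapped in middle-aged naïve mice. The Acaca level per kilobase rests on the longest merged exon length of the 10 genes, 17074 bases, and on the largest share of stretches found in other genes, and the part of either in its low level was not tested.

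The comparison of injured with naïve tissue asked how the fatty acid route of white matter differed 3 days after lysolecithin injection. None of the 4 groups had surgery or injection without lysolecithin. Effects of surgery and injection therefore cannot be told apart from those of demyelination. In young lesions 9 of the 10 genes fell and Srebf1 did not pass the test, and in middle-aged lesions all 10 fell. Among all genes tested, 26.3% fell in young and 29.3% in middle-aged lesions. The median log2 fold change of the 10 genes was -1.27 in young and -1.21 in middle-aged mice, against 0.000645 and -0.0323 for all genes tested. The largest decreases were those of the stearoyl-CoA desaturases, which insert the first double bond into palmitate and stearate. The 3 injured pools lay below the 3 naïve pools for all 10 genes at both ages, as they did for 32.2% of all genes in young and 29.7% in middle-aged mice. Tests were edgeR quasi-likelihood tests with Benjamini-Hochberg adjustment over all genes tested. The injury comparisons at the 2 ages share no pools, and the p-values measure the spread between pools.

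**Figure D1:**
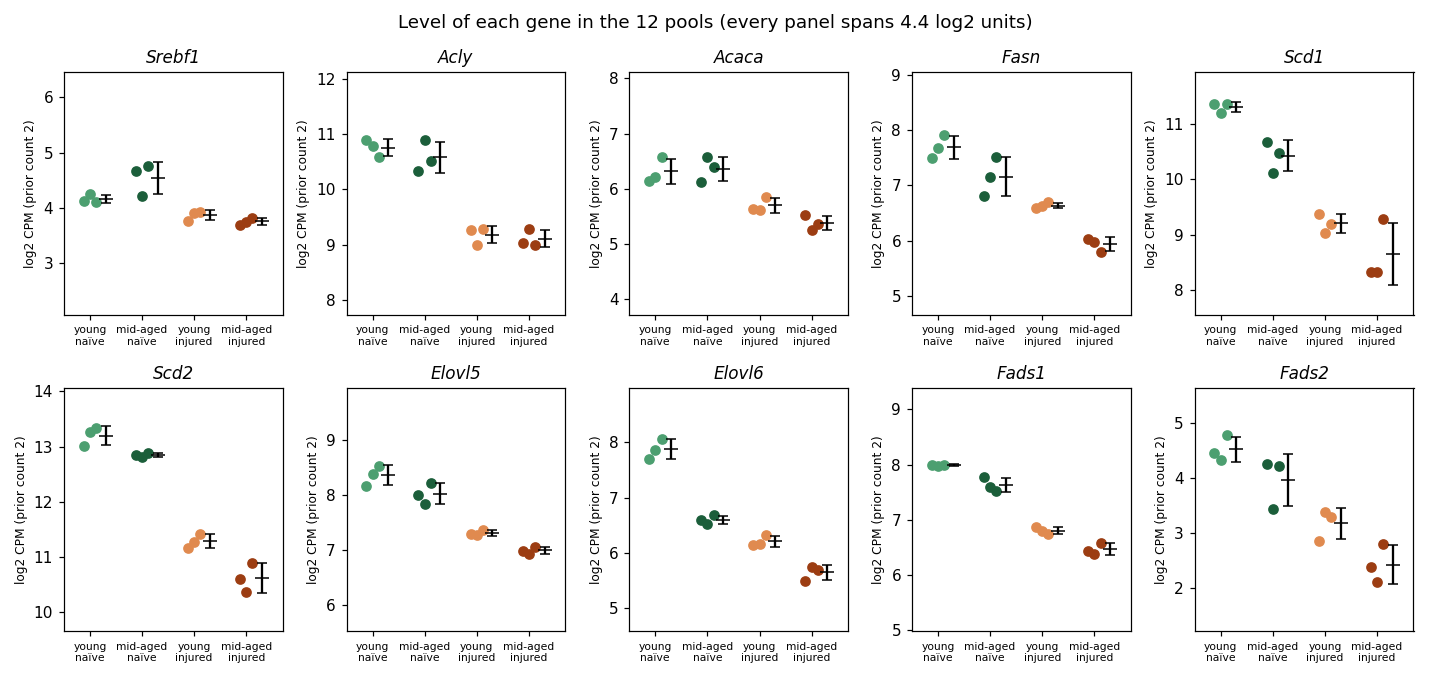
Level of each of the 10 genes in the 12 pools, as log2 CPM with a prior count of 2 (vertical axis; each panel spans the same number of log2 units at its own level); points are pools and bars are group means ± SD (n = 3). In every panel the injured pools lie below the naïve pools of the same age, and the young and middle-aged naïve pools of Elovl6 do not overlap.

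Srebf1, which encodes the membrane-bound precursor of SREBP-1, was the least abundant gene per kilobase in young naïve pools and had the smallest decreases. Its level was 17.2, 18.8 and 17.1 CPM in young naïve pools and 13.4, 14.9 and 15.0 CPM in young injured pools. In middle-aged mice it was 25.3, 18.3 and 26.8 CPM in naïve and 12.8, 13.2 and 14 CPM in injured pools. The injured pools were the lower ones at both ages, narrowly so in young mice, and the naïve pools of middle-aged mice were spread more widely than any other group. The log2 fold change was -0.29 ± 0.17 (SE; adjusted p = 0.160) in young lesions and -0.82 ± 0.17 (adjusted p = 0.000857) in middle-aged lesions, where Srebf1 fell 1.76-fold.

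Acly encodes ATP-citrate lyase, which supplies the acetyl-CoA. Its level was 1900, 1758 and 1545 CPM in young naïve pools against 611, 512 and 620 CPM in young injured pools. Middle-aged naïve pools had 1299, 1902 and 1467 CPM and middle-aged injured pools 523, 622 and 511 CPM. Naïve and injured pools were far apart, and the ages were interleaved. Acly fell 2.99-fold in young lesions (log2 fold change -1.58 ± 0.15, adjusted p = 7.15e-07) and 2.82-fold in middle-aged lesions (-1.50 ± 0.15, adjusted p = 1.03e-06).

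Acaca encodes acetyl-CoA carboxylase 1, the committed step of synthesis in the cytosol, and it had the smallest decrease among the enzymes in young lesions. Young naïve pools had 70.8, 74.3 and 95.6 CPM of Acaca, and young injured pools 49.8, 48.8 and 57.5 CPM. The values were 69.8, 95 and 83.5 CPM in middle-aged naïve and 45.7, 38.1 and 41.1 CPM in middle-aged injured pools. Injured pools were lower throughout, and naïve pools of the 2 ages overlapped. Acaca fell 1.54-fold in young lesions (log2 fold change -0.62 ± 0.15, adjusted p = 0.00283) and 1.99-fold in middle-aged lesions (-0.99 ± 0.15, adjusted p = 6.31e-05).

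Fasn encodes fatty acid synthase, the multi-enzyme protein that makes palmitate, and its promoter window is among those shown above. Its level was 179, 204 and 240 CPM in young naïve and 96.2, 98.0 and 103 CPM in young injured pools. In middle-aged mice the naïve pools had 112, 142 and 183 CPM and the injured pools 65.0, 63.1 and 55.5 CPM. The lowest middle-aged naïve pool lay close to the young injured pools, while the injured groups were tight and did not overlap with each other. The decrease was 2.10-fold in young lesions (log2 fold change -1.07 ± 0.16, adjusted p = 6.33e-05) and 2.38-fold in middle-aged lesions (-1.25 ± 0.16, adjusted p = 1.41e-05).

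Scd1 and Scd2 encode stearoyl-CoA desaturases, whose main product is oleate, the abundant monounsaturated fatty acid of myelin. Scd1 stood at 2630, 2352 and 2650 CPM in young naïve pools and at 665, 523 and 586 CPM in young injured pools. Middle-aged naïve pools had 1646, 1109 and 1431 CPM of Scd1, and middle-aged injured pools 323, 319 and 626 CPM. Injured replicate 3 of the middle-aged group, at 626 CPM, was near the level of the young lesions and apart from the other two of its group. Scd1 fell 4.30-fold in young lesions (log2 fold change -2.10 ± 0.23, adjusted p = 2.96e-06) and 3.30-fold in middle-aged lesions (-1.72 ± 0.23, adjusted p = 1.63e-05). Without that replicate the middle-aged log2 fold change was -2.11.

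Scd2 is the isoform that predominates in the nervous system. Its level was 8236, 9843 and 10283 CPM in young naïve and 2297, 2476 and 2734 CPM in young injured pools. It was 7314, 7200 and 7517 CPM in middle-aged naïve and 1548, 1314 and 1911 CPM in middle-aged injured pools. The 4 groups did not overlap, with young above middle-aged and naïve above injured. Scd2 fell 3.78-fold in young lesions (log2 fold change -1.92 ± 0.14, adjusted p = 6.36e-08) and 4.62-fold in middle-aged lesions (-2.21 ± 0.15, adjusted p = 1.47e-08).

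Elovl5 and Elovl6 encode elongases that add carbon units to fatty acids, Elovl5 mainly to polyunsaturated chains and Elovl6 to saturated and monounsaturated chains such as palmitate. Elovl5 had 286, 334 and 366 CPM in young naïve, 156, 154 and 164 CPM in young injured, 255, 229 and 297 CPM in middle-aged naïve and 127, 122 and 134 CPM in middle-aged injured pools. Injured pools were tightly grouped below the naïve pools, and Elovl5 fell 2.08-fold in young (log2 fold change -1.05 ± 0.12, adjusted p = 4.86e-06) and 2.04-fold in middle-aged lesions (-1.03 ± 0.12, adjusted p = 5.38e-06). Elovl6 had 209, 234 and 269 CPM in young naïve and 70.9, 71.2 and 80.3 CPM in young injured pools. In middle-aged mice Elovl6 started from a lower level, 96.1, 91.4 and 103 CPM in naïve pools, and stood at 45, 53.8 and 51.3 CPM in injured pools. The middle-aged naïve pools of Elovl6 lay nearer to the young injured pools than to the young naïve pools. Elovl6 fell 3.20-fold in young lesions (log2 fold change -1.68 ± 0.12, adjusted p = 5.17e-08) and 1.93-fold in middle-aged lesions (-0.95 ± 0.12, adjusted p = 1.24e-05).

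Fads1 and Fads2 encode the delta-5 and delta-6 desaturases, which make arachidonic and docosahexaenoic acid from the essential fatty acids. Fads1 had 256, 252 and 256 CPM in young naïve, 117, 111 and 107 CPM in young injured, 218, 193 and 185 CPM in middle-aged naïve and 86.7, 83.8 and 95.9 CPM in middle-aged injured pools. The 4 groups were tight and did not overlap, and Fads1 fell 2.28-fold in young lesions (log2 fold change -1.19 ± 0.10, adjusted p = 2.98e-07) and 2.24-fold in middle-aged lesions (-1.16 ± 0.10, adjusted p = 3.41e-07). Fads2 was the lower of this pair per kilobase, and had 21.8, 19.7 and 27.2 CPM in young naïve, 7.11, 10.2 and 9.63 CPM in young injured, 19.0, 10.6 and 18.4 CPM in middle-aged naïve and 5.06, 4.15 and 6.81 CPM in middle-aged injured pools. Middle-aged naïve replicate 2, at 10.6 CPM, came within reach of the young injured pools. Fads2 fell 2.55-fold in young lesions (log2 fold change -1.35 ± 0.26, adjusted p = 0.000451) and 3.00-fold in middle-aged lesions (-1.59 ± 0.27, adjusted p = 0.000141).

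**Figure D2:**
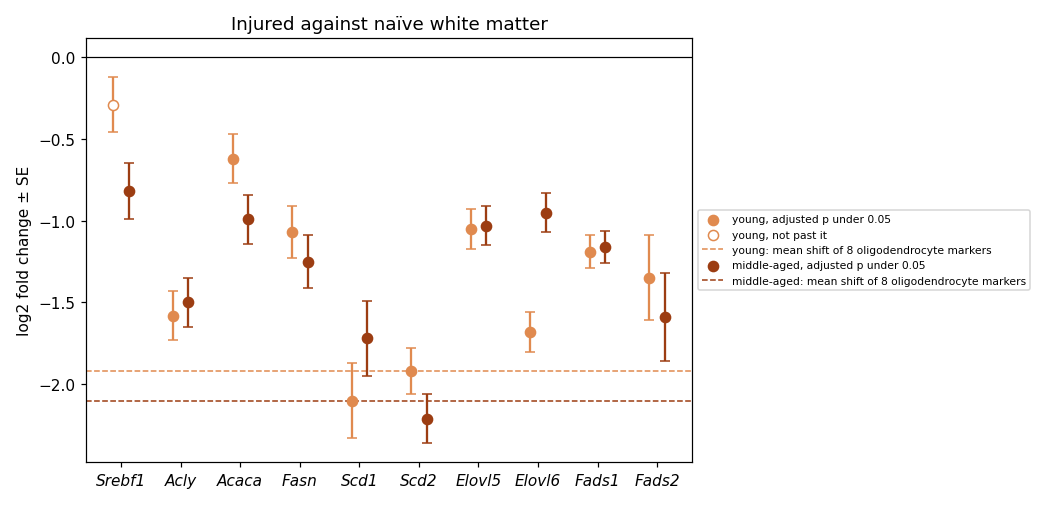
Log2 fold change of injured against naïve white matter with its SE (vertical axis) for the 10 genes in young and middle-aged mice; filled points have an adjusted p under the threshold, and dashed lines are the mean shifts of 8 oligodendrocyte markers, -1.92 in young and -2.10 in middle-aged mice. All points lie below 0, with Scd1 and Scd2 nearest to the marker lines and Srebf1 and Acaca nearest to 0 in young mice.

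Markers of several cell types moved with these decreases. All 8 oligodendrocyte markers fell at both ages, and their summed level ranged from 89198 to 105236 CPM in young naïve, 54050 to 61503 in middle-aged naïve, 19334 to 21728 in young injured and 8423 to 13035 in middle-aged injured pools. All 5 pan-myeloid markers rose at both ages, from summed levels of 65.6 to 92.2 and 96.9 to 130 CPM in young and middle-aged naïve pools to 1219 to 1258 and 1316 to 1756 CPM in injured pools. Of 5 astrocyte markers, 4 fell at each age, and 2 of 3 oligodendrocyte progenitor markers, 2 of 3 endothelial markers and all 3 meningeal fibroblast markers rose. Of 4 neuron markers, 2 fell in young lesions, and 3 fell and 1 rose in middle-aged lesions. Of 4 microglia markers, 1 rose and 1 fell in young lesions and 2 fell in middle-aged lesions. The part of these cell types in the decreases was not tested, and in bulk tissue fewer cells of a type and less RNA per cell cannot be told apart.

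Set against the mean of the 8 oligodendrocyte markers in the same pool, the 10 genes did not all move with that mean. Single markers ranged widely themselves, with log2 fold changes of -2.56 to -0.60 in young and -2.65 to -0.59 in middle-aged lesions. All of the 10 genes lay within these ranges except Srebf1 in young lesions (-0.29). Relative to the marker mean, Scd2 differed between injured and naïve pools by 0.01 log2 units in young mice, where the pools overlapped. The difference was -0.13 in middle-aged mice, where they did not overlap. For Scd1 the corresponding differences were -0.19 and 0.32, with overlapping pools at both ages, and for Acly they were 0.34 and 0.61, also overlapping. The other 7 genes stood higher against the oligodendrocyte markers in injured than in naïve pools at both ages without overlap. Srebf1 did so by 1.63 and 1.31 log2 units in young and middle-aged mice, Acaca by 1.31 and 1.12, Elovl5 by 0.88 and 1.07, and Fasn by 0.86 and 0.88. Elovl6 stood higher by 0.25 in young and 1.15 in middle-aged lesions. The marker mean itself shifted by -1.92 in young and -2.10 in middle-aged lesions, so an unchanged gene would also stand higher. How many of all genes do so was not counted. The differences describe the pools and carry no test.

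The comparison of middle-aged with young mice asked whether the route differed with age before and after injury. In naïve white matter Scd1 and Elovl6 were lower in middle-aged mice and the other 8 genes did not pass the test, while 1.78% of all genes tested were lower. The median log2 difference of the 10 genes was -0.36, against 0.0135 for all genes tested. The pools did not overlap for 5 genes, Scd1, Scd2, Elovl6, Fads1 and Fads2, all lower in middle-aged mice, as were 9.34% of all genes tested. This comparison uses the same young naïve pools as the injury comparison in young mice.

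Elovl6 had the largest age difference, 2.45-fold lower in middle-aged naïve pools (log2 difference -1.29 ± 0.12, adjusted p = 9.32e-05). Scd1 was 1.82-fold lower (-0.87 ± 0.22, adjusted p = 0.0471), a call close to the threshold that was lost without any one pool other than middle-aged naïve replicate 1 and middle-aged injured replicates 2 and 3, with adjusted p up to 0.120 and log2 differences of -0.73 to -0.92. Fads1 (-0.36 ± 0.10, adjusted p = 0.0701) and Fasn (-0.51 ± 0.16, adjusted p = 0.0979) lay just short of the threshold. Fads1 passed it without middle-aged naïve replicate 1 (-0.43, adjusted p = 0.0409), and Fasn passed it without middle-aged naïve replicate 3 (-0.71, adjusted p = 0.0206). Across all alternative settings and omitted pools, the adjusted p reached 0.363 for Fads1 and 0.379 for Fasn. Srebf1 was the only gene of the 10 with a log2 difference above 0.1, at 0.41 ± 0.17 (adjusted p = 0.211). Without middle-aged naïve replicate 2, the pool that stood apart, it was 0.55 (adjusted p = 0.0471). Across the same alternatives the adjusted p of Srebf1 reached 0.519. Acly (-0.16 ± 0.15) and Acaca (0.05 ± 0.15) showed no detectable age difference in naïve tissue.

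In injured white matter Scd2 and Elovl6 were lower in middle-aged mice, against 0.908% of all genes tested, and the median log2 difference of the 10 genes was -0.41, against 0.00203 for all genes tested. Scd2 was 1.57-fold lower (log2 difference -0.65 ± 0.14, adjusted p = 0.0373) and Elovl6 1.48-fold lower (-0.57 ± 0.12, adjusted p = 0.0391). Both calls were lost without young naïve replicate 2, any young injured pool, or middle-aged injured replicate 1 or 2, and the Elovl6 call also without middle-aged injured replicate 3. With these pools left out, the adjusted p reached 0.221 for Scd2 and 0.267 for Elovl6. Fasn was 1.62-fold lower (-0.70 ± 0.16, adjusted p = 0.0601), and passed the threshold when any of the 3 middle-aged naïve pools was left out of the shared fit (adjusted p = 0.0235 to 0.0354). It also passed with all pools kept when libraries were scaled by their totals (adjusted p = 0.0376), with DESeq2 (0.00853), without a filter on low counts (0.00337) and with only the 6 injured pools in the fit (0.00199). Across all alternatives the adjusted p of Fasn in injured tissue reached 0.266. Scd1 was at -0.49 ± 0.22 (adjusted p = 0.512), and at -0.87 (adjusted p = 0.0285) without middle-aged injured replicate 3. With each pool left out in turn, the Scd1 difference ranged from -0.87 to -0.32. The pools did not overlap for 7 genes (Acaca, Fasn, Scd2, Elovl5, Elovl6, Fads1 and Fads2), all lower in middle-aged lesions, as were 12.2% of all genes tested.

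**Figure D3:**
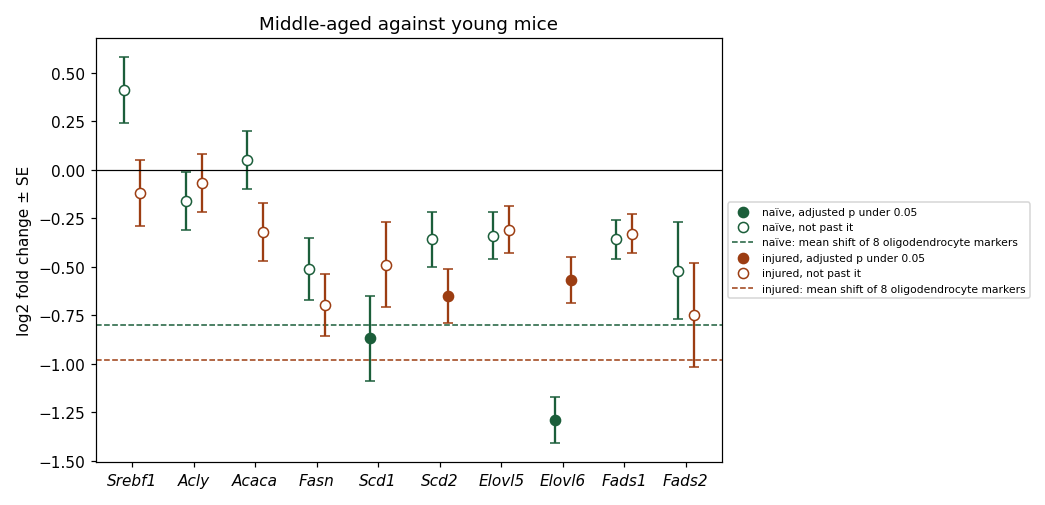
Log2 difference of middle-aged against young mice with its SE (vertical axis) for the 10 genes in naïve and injured white matter; filled points have an adjusted p under the threshold, and dashed lines are the mean shifts of 8 oligodendrocyte markers, -0.80 in naïve and -0.98 in injured tissue. Elovl6 in naïve tissue, at -1.29, is the only point below both lines, and Srebf1 in naïve tissue, at 0.41, is the highest.

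The oligodendrocyte markers were also lower in middle-aged mice. In naïve tissue 5 of the 8 fell with age and the mean shift was -0.80 log2 units, and in injured tissue 7 of the 8 fell with a mean shift of -0.98. Of the 5 pan-myeloid markers, 3 rose with age in naïve tissue, as did 2.02% of all genes tested, and the mean shift was 0.97 in naïve and 0.27 in injured tissue. Of the other marker lists, single genes passed the test with age. Gpr17, of committed oligodendrocyte progenitors, was lower in naïve (-1.76 ± 0.38, adjusted p = 0.0195) and injured tissue (-2.22 ± 0.38, adjusted p = 0.0102). Siglech of microglia was higher in naïve tissue (1.13 ± 0.24, adjusted p = 0.0209), and the astrocyte gene Gja1 (-0.78 ± 0.12, adjusted p = 0.00525) and the fibroblast gene Col1a1 (-1.92 ± 0.33, adjusted p = 0.0107) were lower in injured tissue. The part of these differences in those of the 10 genes was not tested. Against the oligodendrocyte markers of the same pool, Elovl6 was 0.49 log2 units below the young level in middle-aged naïve tissue (difference -0.49, pools not overlapping), and it was 0.41 above it in injured tissue. Scd1 differed by -0.08 and 0.42 with overlapping pools, whereas Srebf1 stood 1.19 and 0.86 and Acaca 0.85 and 0.66 log2 units higher without overlap. Acaca itself differed by only 0.05 in naïve tissue, so a gene without an age difference also stands higher against the lower marker mean. How many of all genes do so was not counted. Single markers ranged from -1.44 to -0.20 in naïve tissue, which includes the -1.29 of Elovl6, and from -1.36 to -0.51 in injured tissue.

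Whether the injury effect differed between ages was tested as an interaction, which passed the threshold for 0 of the 10 genes by edgeR, against 0.139% of all genes tested. At an unadjusted p under 0.05 there were 2 of the 10, Elovl6 and Srebf1, against 1575 of all 15866 genes tested. In middle-aged mice the Elovl6 decrease was smaller by 0.73 ± 0.17 log2 units (adjusted p = 0.127), and DESeq2 called this 1 gene (adjusted p = 0.0115). The Srebf1 decrease was larger in middle-aged mice, with a difference of -0.52 ± 0.24 (adjusted p = 0.491). For Elovl5, Fads1 and Acly the difference was 0.02 ± 0.17, 0.03 ± 0.15 and 0.08 ± 0.21.

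Ratios of 2 genes within a pool do not depend on how libraries are scaled, and 5 pairs of related genes were compared, with 10 exact permutation tests (2-sided, labels exchanged within strata, 400 arrangements, smallest possible p 0.005) adjusted together. The ratio of Elovl5 to Elovl6, per kilobase, was 2.49, 2.61 and 2.49 in young naïve pools and 4.85, 4.57 and 5.29 in middle-aged naïve pools. It was 4.02, 3.96 and 3.74 in young injured and 5.14, 4.13 and 4.75 in middle-aged injured pools. Middle-aged pools were above young pools in both states, by 0.95 log2 units in naïve and 0.25 in injured tissue, 0.60 on average (exact permutation p = 0.005, adjusted p = 0.0167). The injury difference averaged 0.28 (adjusted p = 0.150 in the exact test), with 0.63 in young mice, where the pools did not overlap, and -0.07 in middle-aged mice, where they did. Scd1 to Scd2 stayed between 0.172 and 0.366 in all 12 pools, with differences of 0.12 for injury (adjusted p = 0.535) and -0.21 for age (adjusted p = 0.356) in exact permutation tests. Both averages join strata of opposite sign: the age difference was -0.52 in naïve tissue, without overlap, and 0.11 in injured tissue, with overlap, and the injury difference was -0.19 in young and 0.44 in middle-aged mice, with overlap in both. Whether these strata differ was not tested. Fads1 to Fads2 was 7.73 ± 1.17 in young naïve and 11.6 ± 2.07 in middle-aged injured pools, and neither injury (0.28, adjusted p = 0.243) nor age (0.31, adjusted p = 0.217) passed the exact permutation test.

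Srebf2 encodes SREBP-2, which mainly drives sterol genes, and Acacb encodes the acetyl-CoA carboxylase of the mitochondrial surface, whose malonyl-CoA limits fatty acid oxidation. The ratio of Srebf1 to Srebf2 was 0.102 to 0.135 in young naïve, 0.193 to 0.227 in middle-aged naïve, 0.228 to 0.242 in young injured and 0.232 to 0.322 in middle-aged injured pools. It was higher after injury by 0.71 log2 units (exact permutation p = 0.005, adjusted p = 0.0167), with 1.03 in young and 0.39 in middle-aged mice. It was higher in middle-aged mice by 0.57 (exact permutation p = 0.015, adjusted p = 0.0375), with 0.89 in naïve tissue and 0.25 in injured tissue, where the pools overlapped. Srebf2 itself fell at both ages (-1.33 ± 0.13 and -1.18 ± 0.14). Acaca to Acacb went from 4.43 ± 0.423 in young naïve and 3.69 ± 1.51 in middle-aged naïve pools to 10.7 ± 3.01 and 10.2 ± 3.83 in injured pools. It was 1.35 log2 units higher after injury (exact permutation p = 0.005, adjusted p = 0.0167), with no detectable age difference (-0.22, adjusted p = 0.450), and Acacb had only 22 to 52 counts in the injured pools.

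**Figure D4:**
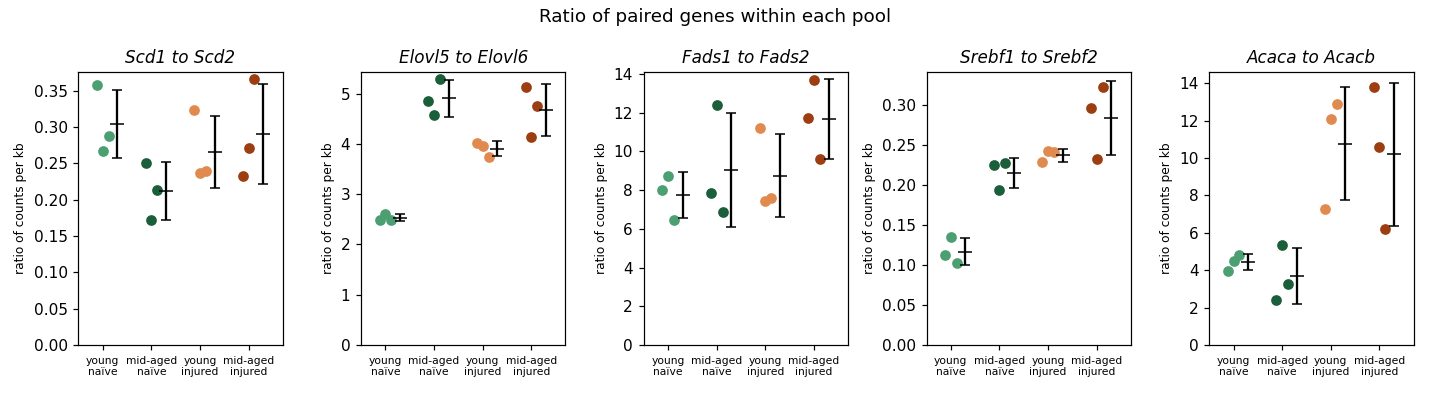
Ratio of counts per kilobase of 5 pairs of genes within each pool (vertical axes start at 0); points are pools and bars are group means ± SD (n = 3). The Elovl5 to Elovl6 ratio is lowest in young naïve pools (2.49 to 2.61), and the Acaca to Acacb ratio is highest in the injured groups.

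Beside the 10 genes, 6 lists of other lipid genes were described by their counts and medians. Among all genes tested, 28.3% rose in young and 29.2% in middle-aged lesions. Of 16 sterol synthesis genes, 15 fell in young and 15 in middle-aged lesions (median log2 fold change -1.84 and -1.31). With age 11 were lower in naïve and 8 in injured tissue. Lss, which closes the sterol ring, fell by -2.32 ± 0.15 and -1.69 ± 0.15 in young and middle-aged lesions, Dhcr7, which makes cholesterol from its last precursor, by -1.41 ± 0.15 and -0.94 ± 0.15, Mvk, mevalonate kinase, by -1.25 ± 0.25 and -0.82 ± 0.25, and Fdps, which makes farnesyl diphosphate, by -2.73 ± 0.54 and -1.87 ± 0.58. Fdps had only 12 to 20 counts in young injured and 5 to 15 in middle-aged injured pools.

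Genes that supply acetyl-CoA, malonyl-CoA and NADPH did not move as 1 group. Of 8 genes, 1 rose and 4 fell in young lesions, and 2 rose and 4 fell in middle-aged lesions (medians -0.51 and -0.50). Pgd, an NADPH-producing enzyme of the pentose phosphate pathway, rose from 42.4 ± 3.37 to 158 ± 6.74 CPM in young and from 43.9 ± 9.11 to 157 ± 17.5 CPM in middle-aged mice. Me1, malic enzyme and another NADPH source, fell (-0.80 ± 0.14 and -0.91 ± 0.14), as did Acacb (-1.83 ± 0.30 and -2.43 ± 0.31). Acss2, which makes acetyl-CoA from acetate, fell from 150 ± 23.8 to 29.6 ± 1.05 CPM in young and from 71.7 ± 8.96 to 15.6 ± 0.561 CPM in middle-aged mice.

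Among 17 other elongases, elongation cycle enzymes, desaturases and their electron donors, Elovl3 and Scd4 were too low to be tested. Of the other 15, 3 rose and 8 fell in young lesions and 4 rose and 7 fell in middle-aged lesions (medians -0.61 and -0.43). Hacd4, a dehydratase of the elongation cycle, rose from 8.54 ± 1.88 to 102 ± 3.63 CPM in young and from 12.7 ± 4.64 to 101 ± 12.8 CPM in middle-aged mice. Fads3, a paralogue that shares short stretches with Fads2, also rose (1.51 ± 0.24 and 1.09 ± 0.23), in contrast to both of them. Fads6 (-2.13 ± 0.15 and -2.51 ± 0.15) and Scd3, a further stearoyl-CoA desaturase (-2.23 ± 0.32 and -2.49 ± 0.32), fell.

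Of 11 genes that control SREBP-1 or lipogenic transcription, 4 rose and 4 fell in young lesions and 3 rose and 5 fell in middle-aged lesions (medians -0.04 and 0.04). Nr1h3, the nuclear receptor LXR alpha, which can activate Srebf1, rose (1.1 ± 0.28 and 1.86 ± 0.28), as did Mbtps1, the protease that first cuts SREBP precursors (0.49 ± 0.12 and 0.51 ± 0.13). Insig1, which holds SREBP precursors in the endoplasmic reticulum, fell (-2.13 ± 0.17 and -1.72 ± 0.17), and so did Thrsp, a gene linked to lipogenesis (-2.42 ± 0.29 and -2.78 ± 0.31). Direction was thus mixed in this list.

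All 6 long-chain acyl-CoA synthetases, which activate fatty acids for further use, changed at both ages, 2 upward and 4 downward. Acsl5 rose from 11.7 ± 4.35 to 61.3 ± 4.42 CPM in young and from 12.3 ± 3.26 to 69.6 ± 10.4 CPM in middle-aged mice, and Acsl4, which prefers arachidonic acid, rose by 0.84 ± 0.12 and 1.72 ± 0.12. Acsl6 (-1.70 ± 0.16 and -1.63 ± 0.16) and Acsl3 (-2.02 ± 0.15 and -2.14 ± 0.15) fell. Of 15 genes of beta-oxidation, the breakdown route, 4 rose and 3 fell in young and 2 rose and 2 fell in middle-aged lesions, with medians of -0.03 and -0.06. Cpt1a, which admits fatty acids to mitochondria and is inhibited by malonyl-CoA, rose from 85.0 ± 18.2 to 187 ± 14.1 CPM in young and from 85.6 ± 3.42 to 185 ± 14.6 CPM in middle-aged mice. Slc25a20, the carnitine carrier, rose (0.96 ± 0.14 and 1.07 ± 0.15), while Hadhb, a subunit of the mitochondrial trifunctional protein, fell (-0.54 ± 0.10 and -0.53 ± 0.10).

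**Figure D5:**
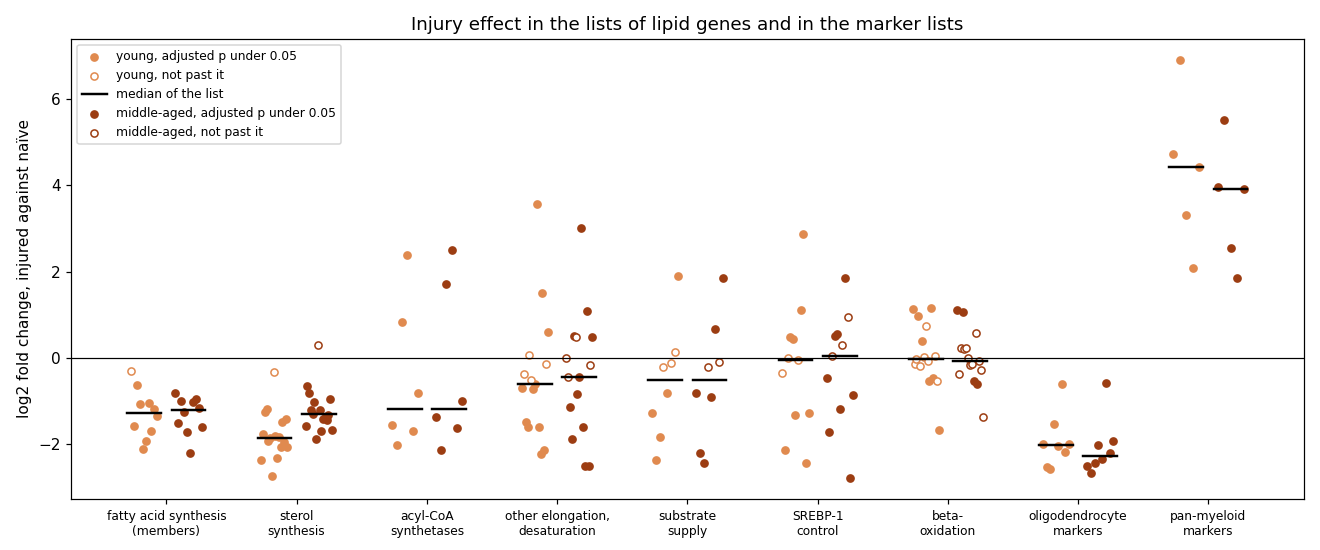
Log2 fold change of injured against naïve white matter (vertical axis) for each tested gene of 7 lists of lipid genes and of 2 marker lists, in young and middle-aged mice; filled points have an adjusted p under the threshold and bars are list medians. The 10 fatty acid genes (medians -1.27 and -1.21) and the sterol genes (-1.84 and -1.31) lie below 0 almost throughout, whereas beta-oxidation genes (-0.03 and -0.06) straddle it.

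For Fasn and Scd1 the genes with the most similar profile were sought among 13074 genes, as the smallest Euclidean distance between log2 CPM profiles over the 12 pools after each was scaled to mean 0 and SD 1. Nearest to Scd1 were Prr18 (distance 0.425), Gjc3 (0.546), Tppp (0.653), Setd7 (0.662) and Paqr8 (0.665). Fasn had more distant neighbours, Fntb (0.702), Mmp15 (0.706), Srcin1 (0.740), Sbf1 (0.747) and Pacs2 (0.787). These distances are a description over 12 pools that share 4 groups.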

How the data were processed

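Libraries from laser-captured white matter included an RNA amplification step and were read on an Illumina NextSeq500. Per the labels and the study's methods, the authors checked reads with FastQC 0.11.4, aligned them to GRCm38 with TopHat2 2.0.10 and Bowtie 1.1.2, and deposited raw gene counts from featureCounts. The annotation release, strand setting and treatment of shared reads are not given in the sources used here. Groups and replicate numbers came from the sample titles, and ages and times from the methods. The 10 genes, the gene lists and the markers were chosen with earlier results of these data known.

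The tests used edgeR 4.0.16 in R 4.3.3 (TMM, filterByExpr, glmQLFit, glmQLFTest; 1 coefficient per group, all 12 pools, no covariates), with Benjamini-Hochberg adjustment over the 15866 genes tested and a threshold of 0.05. Log2 CPM used a prior count of 2, and ratios of 2 genes 0.5 added to each count. From each pathway list the text names the 2 highest and 2 lowest genes by the mean of both injury log2 fold changes, among those with an adjusted p under 0.05 at both ages and a mean log2 CPM no lower than 1. Srebf2, partner in a ratio, was named besides, and some genes that the rule or the lists hold are not reported here. Alternatives were 3 other scalings, DESeq2 1.42.0, 2 other filters, the replicate number as a block, only the 6 pools compared, 2 other pseudocounts and each pool left out in turn. The edgeR and DESeq2 steps were tried on simulated counts for the injury comparison in young mice alone, which does not cover the other comparisons. Of the gene identifiers, 45143 (98.0%) had a symbol. The floor of detection, 3 counts, was 0.234 to 0.305 CPM. Replicate libraries all differed by more than sampling noise.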

Additional observations from a re-analysis of the deposited data

How the results depend on the processing

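The counts of genes that fell after injury, 9 in young and 10 in middle-aged mice, were the same under every alternative, although scaling by library totals alone shifted the median of all genes by 0.20 log2 units in young and 0.11 in middle-aged mice (5377 genes higher and 3236 lower in young lesions, against 4483 and 4175). The age calls rest on few pools: they numbered 1 in naïve tissue with library totals, upper quartile scaling, the stricter filter or only the 6 pools compared, and 3 with DESeq2 (Fads1 added, adjusted p = 0.0122) or without a filter (Fasn added, adjusted p = 0.0286). In injured tissue they numbered 3, with Fasn added, with library totals, DESeq2, no filter or only the 6 pools. With a pool left out they numbered 1 to 3 in naïve and 0 to 3 in injured tissue. For the interaction DESeq2 called 1 gene. With library totals the interaction was -0.07 for Elovl5 and -0.06 for Fads1; with a pool left out it ranged from -0.06 to 0.13 for Elovl5, -0.03 to 0.10 for Fads1, -0.03 to 0.26 for Acly, -0.34 to 0.02 for Fasn and -0.01 to 0.54 for Scd1, and the age difference of Acaca in naïve tissue from -0.07 to 0.19. The cause of these changes was not tested. Over all genes, 603 age calls in naïve tissue became 1085 with DESeq2, 1153 without a filter and 71 with only the 6 pools, 182 in injured tissue became 446, 437 and 821, and 22 interaction calls became 240 with DESeq2 and 329 without a filter. With a pool left out these counts ranged from 261 to 799, 45 to 410 and 3 to 56, so the shares of all genes called that stand beside the age and interaction results move as widely.

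Replicate numbers did not pair the pools: 2 of 18 same-numbered pairs had deviations correlated above 0.1 (range -0.113 to 0.153; other pairs -0.174 to 0.172), and 5 of 12 pools lay closest to their own number. With the replicate block the counts of calls among the 10 genes stayed at 9, 10, 2, 2 and 0. The block's exact test of the ratios has 64 arrangements, so its smallest p, 0.0312, passes after adjustment only if most of the 10 tests reach it. Its loss of all 4 ratio calls therefore says nothing about their stability, and the differences were the same in this exact test: Elovl5 to Elovl6 by age (0.60), Srebf1 to Srebf2 by injury (0.71) and Acaca to Acacb by injury (1.35) with p = 0.0312 and adjusted p = 0.104, and Srebf1 to Srebf2 by age (0.57) with p = 0.0625 and adjusted p = 0.125.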
